A study of Mus musculus with 9 samples.

Results

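The ADAMTS, ADAMTS-like and matrix metalloprotease (MMP) genes and the TIMP genes were examined in the lumbar dorsal root ganglia, which house the cell bodies of sensory neurons next to the spinal cord. All protein-coding mouse genes named Adamts, Adamtsl or Mmp with a number, and Timp1 to Timp4, were taken by symbol and found by Ensembl identifier in every count table. This gave 50 members of 55536 genes, made up of 19 Adamts, 5 Adamtsl, 22 Mmp and 4 Timp genes. Mmp1a, which the annotation lists as a polymorphic pseudogene, was left out. Messenger RNA had been sequenced from adult C57Bl6 mice in 9 libraries, 5 with an inducible conditional knock-out of the transcriptional regulator gene Prdm12 (icKO) and 4 labelled wild type (control). Tissue was taken 1 month after tamoxifen, the drug that induces the deletion. The sources used here do not name the driver of the recombinase, the alleles the controls carry or the cells that lose Prdm12. Nor do they say whether the controls were given tamoxifen or whether each library is a separate animal. P-values therefore measure only the spread among these libraries, part of which may be technical.

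ADAMTS proteases and MMPs are zinc-dependent enzymes that cut proteins of the extracellular matrix and of the cell surface. Both are made as inactive precursors whose prodomain is removed or opened, many by furin-type convertases. The ADAMTS-like proteins share the ancillary domains of ADAMTS proteases but have no catalytic domain, and they bind matrix microfibrils. TIMPs are the secreted inhibitors of these enzymes. In sensory ganglia and nerves, gelatinases and membrane-type MMPs are known from studies of nerve injury and pain, and aggrecanases from studies of the proteoglycan coat around neurons.

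The members fell into those whose genes were read in the ganglia and those that were almost silent, and most of the silent ones sat side by side. Of the 50, 9 lie in a single cluster of 427072 bp on chromosome 9, from 7272514 to 7699585 of mm10, and they hold 8 of the 10 members with too few counts for a test. The stretch of 250 bases before the RefSeq start site is shown for 4 genes of this cluster because each holds the letters TGAGTCA or their reverse complement TGACTCA, the consensus for the AP-1 transcription factors. Capitals mark these letters.
Mmp3: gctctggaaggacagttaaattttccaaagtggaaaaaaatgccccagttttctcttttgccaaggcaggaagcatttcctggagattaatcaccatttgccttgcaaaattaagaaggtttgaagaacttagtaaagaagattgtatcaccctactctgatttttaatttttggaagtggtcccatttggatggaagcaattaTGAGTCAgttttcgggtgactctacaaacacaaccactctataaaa
Mmp7: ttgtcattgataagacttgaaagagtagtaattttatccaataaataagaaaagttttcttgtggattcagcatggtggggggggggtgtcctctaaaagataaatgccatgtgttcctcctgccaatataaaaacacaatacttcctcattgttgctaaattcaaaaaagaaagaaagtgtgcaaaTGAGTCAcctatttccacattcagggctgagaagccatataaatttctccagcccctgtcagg
Mmp10: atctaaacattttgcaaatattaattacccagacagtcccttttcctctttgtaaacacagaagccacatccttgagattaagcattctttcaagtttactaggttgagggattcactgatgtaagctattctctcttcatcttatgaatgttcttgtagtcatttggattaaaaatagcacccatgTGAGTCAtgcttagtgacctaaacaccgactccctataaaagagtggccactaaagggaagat
Mmp13: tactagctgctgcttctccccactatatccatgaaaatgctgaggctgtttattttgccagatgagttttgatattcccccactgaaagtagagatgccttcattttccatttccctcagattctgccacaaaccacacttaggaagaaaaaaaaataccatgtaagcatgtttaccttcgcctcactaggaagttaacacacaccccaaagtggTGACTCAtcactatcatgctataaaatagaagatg
The windows are chr9:7445572-7445821, chr9:7691840-7692089, chr9:7502092-7502341 and chr9:7272264-7272513, all on the plus strand of GRCm38.p6 (RefSeq). The letters begin 46 bases before the start in Mmp3, 63 in Mmp7 and Mmp10, and 35 in Mmp13. For contrast, the window of Mmp24 (chr2:155775092-155775341, plus strand), a gene read in every library, is shown with its CG dinucleotides in capitals.
Mmp24: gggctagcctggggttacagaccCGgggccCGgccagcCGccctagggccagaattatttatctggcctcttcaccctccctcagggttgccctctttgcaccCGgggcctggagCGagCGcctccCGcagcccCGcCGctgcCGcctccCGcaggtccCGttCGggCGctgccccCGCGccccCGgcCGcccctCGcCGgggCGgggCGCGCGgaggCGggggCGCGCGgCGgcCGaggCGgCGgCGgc

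RefSeq promoter windows were matched for 35 of the 50 members. The 15 without a window, among them Adamts19, Mmp2 and Mmp9, all lie outside the cluster and all had enough counts for the test. All 10 members with too few counts had a window. The counts and correlations over members below leave out these 15, so they do not cover all expressed members. The AP-1 letters, searched on both strands, were found in 5 of the 9 windows of the chromosome 9 cluster (Mmp1b, Mmp3, Mmp7, Mmp10 and Mmp13) and in 0 of the 26 others, against 4.46% of all 32851 windows of this length. CG dinucleotides numbered 0 to 4 in the windows of the cluster, with a median of 1, and 1 to 39 in the others, with a median of 15. All 24 members with 4 or more CG dinucleotides had enough counts for the test, as did 1 of the 11 with fewer. Among all protein-coding genes with a window, taken here as the lowest-coordinate window of each gene, the shares were 87.1% of 11780 and 27.6% of 4742. The Spearman correlation of CG number with the control level was 0.74 over the 35 members and 0.60 over all 16522 genes, and it was 0.43 over the 26 members outside the cluster. These values are across genes, which are not independent replicates, and the members share gene families and the cluster.

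**Figure D1:**
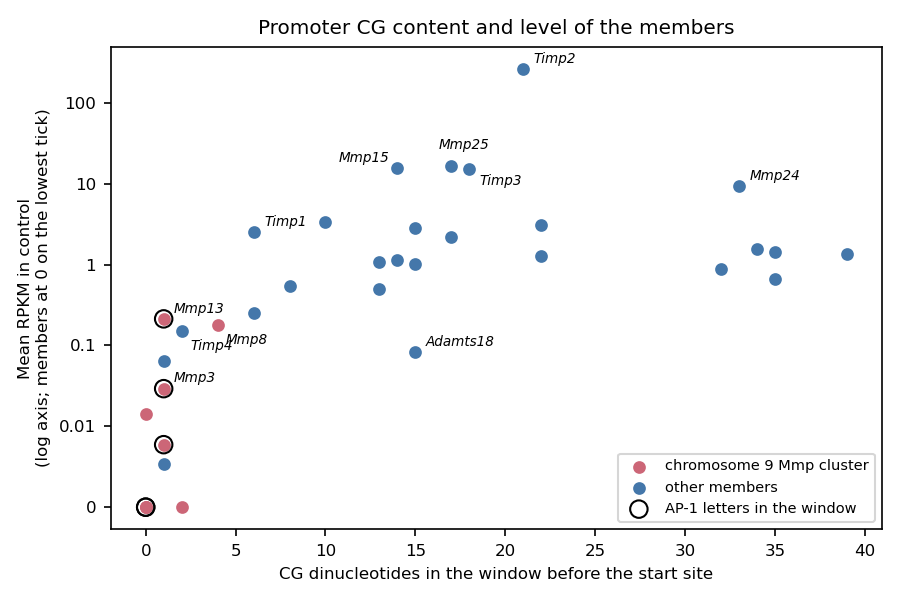
Mean level in the 4 control libraries (RPKM, log axis, members at 0 on the lowest tick) against the number of CG dinucleotides in the 250 bases before the start site, for 35 members. Red points are the 9 genes of the chromosome 9 cluster, which all lie at or below 0.213 RPKM, and rings mark the 5 windows with the AP-1 letters (Mmp1b and Mmp7 fall on the same point as Mmp20, which lacks them).

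Libraries held 19607740 to 29481589 counts, and a gene without counts is given a floor of 3 counts, or 0.102 to 0.153 CPM (counts scaled to library size) by library, which covers counting error only. Markers of sensory neurons summed to 14271 to 18474 CPM in the 9 libraries. Some libraries stood apart in markers of neighbouring tissue: the fibroblast sum was 681 CPM in control 1 and 1394 to 1450 CPM in the other controls, the meningeal sum 773 CPM in icKO 3, the spinal cord glia sum 85.9 CPM in control 4, the skeletal muscle sum 50.6 CPM in control 2 and 33.0 CPM in icKO 1, and the bone and cartilage sum 67.0 CPM in control 3. Of the meningeal sum of icKO 3, 725 CPM came from Ptgds alone. Counts of Y-linked genes were high in 4 libraries (icKO 1 and 2, control 1 and 3) and low in 5. Prdm12 itself, the check of the labels, ran from 22.3 to 26.2 CPM in icKO and from 116 to 163 CPM in control, a log2 fold change of -2.48 (SE 0.09).

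Timp2 stood above every other member in control ganglia. Levels between genes are given as RPKM, the CPM per kilobase of merged exons, as mean ± SD over the 4 control libraries. Timp2, whose product inhibits MMPs and also takes part in the activation of MMP2 on the cell surface, was at 263 ± 29.6 RPKM. Timp3, the inhibitor that binds to the matrix and also blocks ADAMTS proteases, was at 15.3 ± 2.72 RPKM. Its exons overlap those of the antisense gene Syn3, and counting by strand is not given, so some of its reads may belong to Syn3. Timp1, an inhibitor known to be induced in injured tissue, was at 2.51 ± 0.806 RPKM and Timp4 at 0.149 ± 0.0869 RPKM, the latter with exons that overlap antisense Syn2. The same limit holds for Mmp11, Mmp19, Mmp24, Mmp28, Adamts4, Adamts7, Adamts8 and Adamts9, whose exons also overlap antisense genes. Exons of Mmp1b and Mmp12 overlap each other on opposite strands, and those of Mmp7 overlap antisense AV064505. Whether this lowered the counts of Mmp1b, Mmp7 and Mmp12 was not tested. In CPM, the 4 TIMP genes together ran from 998 to 1325 across the 9 libraries, the 22 Mmp genes from 256 to 318, the 19 Adamts genes from 175 to 227 and the 5 Adamtsl genes from 35.5 to 49.1. In these sums the icKO and control ranges overlapped for each of the 4 families.

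Among the proteases, the membrane-type MMPs, which are anchored at the cell surface, led. Mmp25 was at 16.5 ± 2.33 RPKM, Mmp15 at 15.5 ± 3.74 RPKM and Mmp24, a protease known in neurons, at 9.42 ± 1.14 RPKM. The control libraries of Mmp25 and Mmp15 overlapped. Mmp14, the main activator of MMP2, was at 3.33 ± 0.502 RPKM, Mmp17 at 1.42 ± 0.250 RPKM and Mmp16 at 0.969 ± 0.184 RPKM. Of the gelatinases, which digest denatured collagen and basement membrane, Mmp2 was at 7.47 ± 2.40 RPKM and Mmp9 at 0.466 ± 0.115 RPKM, so the 2 did not overlap. The other MMPs that were tested lay below Mmp2, with Mmp11 at 1.14 ± 0.318, Mmp23 at 1.07 ± 0.274, Mmp28 at 1.02 ± 0.0873 and Mmp19 at 0.462 ± 0.0972 RPKM. Mmp1b, Mmp7 and Mmp20 had 0 counts in all 9 libraries, below the floor of each, and Mmp3, Mmp10, Mmp12, Mmp21 and Mmp27 did not exceed 6 counts in any library.

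The aggrecanase and versicanase group cuts the large proteoglycans of the matrix. Adamts5 was at 4.67 ± 0.650 RPKM, Adamts15 at 3.09 ± 0.269, Adamts1 at 2.85 ± 0.475, Adamts8 at 1.59 ± 0.346, Adamts9 at 1.29 ± 0.230 and Adamts20 at 0.873 ± 0.155 RPKM, while Adamts4 was at 0.144 ± 0.0706 RPKM. Of the procollagen N-proteinases, which trim the amino end of fibrillar procollagens, Adamts2 was at 1.56 ± 0.419, Adamts3 at 1.43 ± 0.257 and Adamts14 at 0.655 ± 0.0651 RPKM. Adamts10, a protease linked to fibrillin microfibrils, was at 2.86 ± 0.581 RPKM, ahead of Adamts17 at 0.498 ± 0.0324 and Adamts6 at 0.398 ± 0.0922 RPKM. The COMP-cleaving pair Adamts7 and Adamts12 were at 0.904 ± 0.0996 and 0.252 ± 0.0555 RPKM. Adamts13, the protease of von Willebrand factor, had 60 counts over all libraries and was not tested. Of the ADAMTS-like genes, Adamtsl5 at 3.05 ± 0.274 and Adamtsl4 at 2.17 ± 0.228 RPKM led. Among the remaining ADAMTS proteases, control levels were low, with Adamts16 at 0.243 ± 0.0652, Adamts19 at 0.0900 ± 0.0425 and Adamts18 at 0.0832 ± 0.0277 RPKM. In all, 23 members reached 1 RPKM in control.

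**Figure D2:**
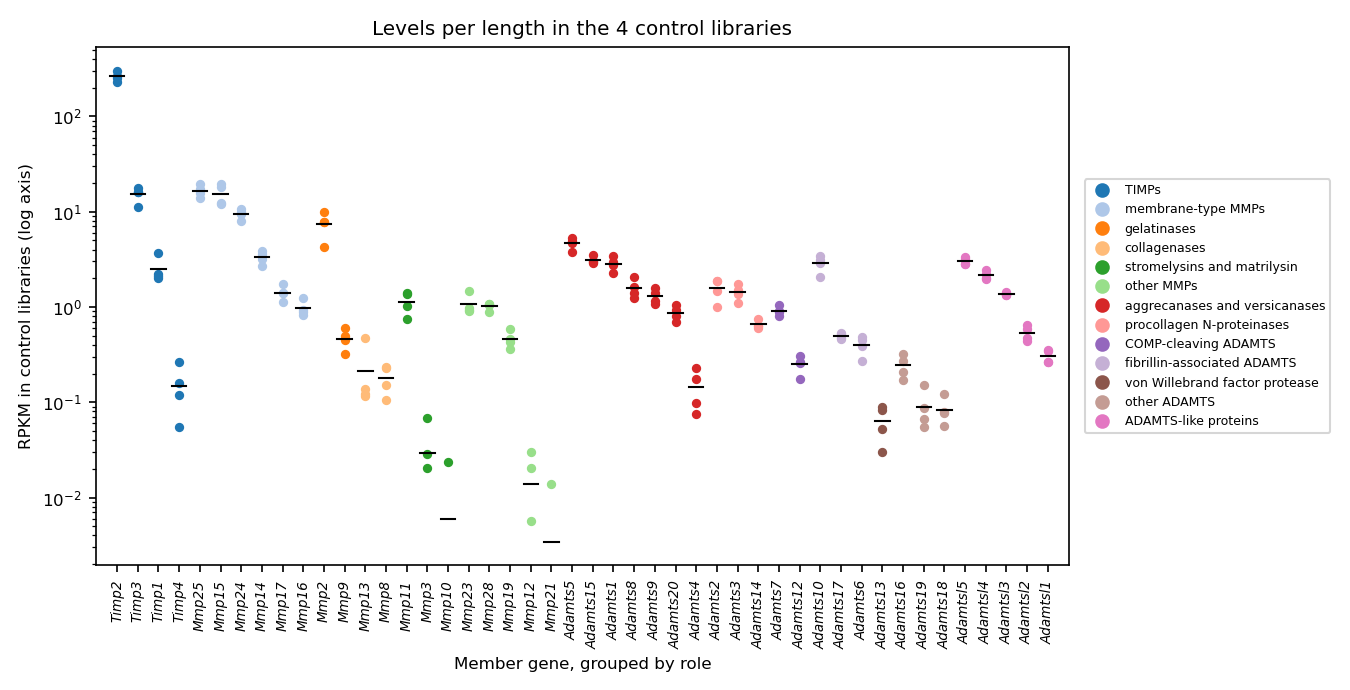
Level per length (RPKM, log axis) of the members with a count in the control libraries, grouped and coloured by role. Points are the 4 control libraries, values at 0 are not drawn, and black bars are means; Timp2 stands above all others at 263 RPKM.

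icKO was compared with control to see which members differ after deletion of Prdm12 in the adult. The counts of 40 members passed the filter on low values and entered the fit over 17258 genes. At an adjusted p under 0.05 (edgeR quasi-likelihood test, Benjamini-Hochberg over all tested genes), 1 member rose, Adamts19, and 0 fell, against a background of 0.852% of all tested genes called. At an unadjusted p under 0.05, 2 members were higher and 2 lower, against 11.1% of all tested genes. DESeq2 also called 1 member, Adamts19, at a background of 2.8%, and limma-voom called the same gene at a background of 0.834%. The median log2 fold change of the 40 was 0.04, and that of all tested genes was -0.0008. For 38 of the 40 the log2 fold change was smaller than 0.4 in size. The median size, without regard to sign, was 0.134 for the 40 and 0.0881 for all tested genes. CPM values of the groups did not overlap for 1 member that was higher (Adamts19) and 2 that were lower (Adamtsl2 and Adamts14), against 2.16% and 2.34% of all tested genes in the same directions and 4.5% in either.

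**Figure D3:**
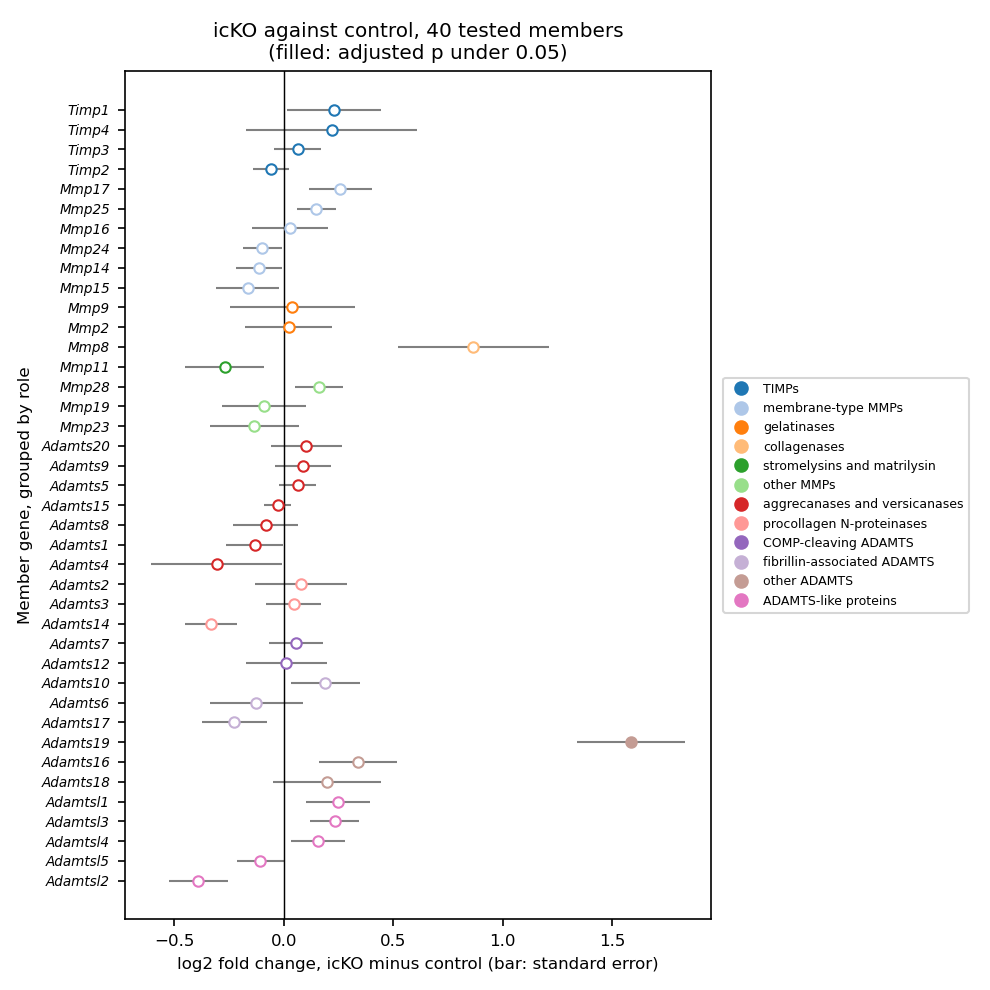
Log2 fold change of icKO over control with its standard error for the 40 tested members, grouped and coloured by role. Adamts19 (filled, 1.58) is the member past the threshold, and Mmp8 at 0.87 with an SE of 0.35 is the next in size.

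Adamts19 encodes a secreted ADAMTS protease with few known substrates, whose loss is known to disturb heart valves. Its level was 3.26, 3.33, 4.25, 4.32 and 3.36 CPM in icKO 1 to 5, and 0.770, 1.22, 0.948 and 2.11 CPM in control 1 to 4. Every icKO library lay above every control library, with control 4 the nearest. Each icKO library held 85 to 122 raw counts of the gene and each control 21 to 41, so the gene rests on few reads in control. Control averaged 1.26 ± 0.596 CPM (SD, n = 4) and icKO 3.70 ± 0.531 CPM (SD, n = 5), a ratio of 2.93, for which edgeR gave a log2 fold change of 1.58 (SE 0.25) with adjusted p = 0.00821. Per length of merged exons it was at 0.0900 ± 0.0425 RPKM in control and 0.264 ± 0.0378 RPKM in icKO, and Adamts17, its closest relative in the family, had a log2 fold change of -0.23 (SE 0.15; edgeR adjusted p = 0.648). Adamts19 (ENSMUSG00000053441) spans chromosome 18:58836667-59054060 of mm10 (plus strand), has 1 protein-coding transcript, and shares no exon with another annotated gene.

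The rise of Adamts19 was seen among libraries of either Y-linked class, but was not called within one. Among the 4 libraries with high Y-linked counts the log2 fold change was 1.94 (adjusted p = 0.171), and among the 5 with low counts 1.27 (adjusted p = 0.183), by edgeR's test on 2 against 2 and 3 against 2 libraries. In these small fits 3 and 20 genes were called in all. With the class as a covariate the log2 fold change was 1.56 (adjusted p = 0.0032), and the test of a difference between the classes gave 0.66 (SE 0.38, adjusted p = 1.00). Control 4, the highest control for Adamts19, also had the highest spinal cord glia sum, at 85.9 CPM against 20.5 to 27.9 CPM in the other 8 libraries. All 7 markers of that list had counts in control 4, with Gfap at 29.7 CPM against at most 1.92 CPM elsewhere. Of the oligodendrocyte markers, Mobp was at 3.40 CPM in control 4, against at most 0.908 CPM elsewhere. Olig1 was at 0.515 CPM there, against at most 0.1045 CPM elsewhere. Mog was at 0.206 CPM, against 0.204 CPM in control 2, and Olig2 at 0.0515 CPM, below the floor of control 4. The part of this tissue in the Adamts19 value of control 4 was not tested, and without control 4 edgeR gave 1.92 (adjusted p = 0.00152).

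Adamtsl2 and Adamts14 had the smallest p-values among the members that missed the threshold. Adamtsl2, whose product binds fibrillin microfibrils, was at 3.43, 2.98, 3.31, 3.33 and 3.24 CPM in icKO 1 to 5 and at 3.81, 3.47, 4.67 and 5.20 CPM in control 1 to 4. The gap between the groups was narrow, since icKO 1 and control 2 nearly met, and the log2 fold change of -0.39 (SE 0.14) had an adjusted p of 0.269. Adamts14 was at 2.73, 2.52, 2.68, 2.76 and 2.84 CPM in icKO and 3.26, 3.31, 3.90 and 3.14 CPM in control, with a log2 fold change of -0.33 (SE 0.12; edgeR adjusted p = 0.285). The 5 icKO libraries were close to each other and below all controls. Its 2 relatives among the procollagen N-proteinases stood at 0.08 (SE 0.21) for Adamts2 and 0.04 (SE 0.13) for Adamts3.

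Mmp8, the collagenase of neutrophil granules, was at 0.606, 0.852, 0.522, 1.36 and 0.632 CPM in icKO 1 to 5 and at 0.550, 0.367, 0.255 and 0.567 CPM in control 1 to 4. The groups overlapped, and icKO 4 was the highest library. Its log2 fold change was 0.87 (SE 0.35, adjusted p = 0.361), on 146 counts in all. The summed neutrophil markers were 26.3 to 58.3 CPM in icKO and 19.2 to 29.5 CPM in control, with all 8 markers counted in every library and icKO 4 again highest. Their part in the Mmp8 values was not tested.

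**Figure D4:**
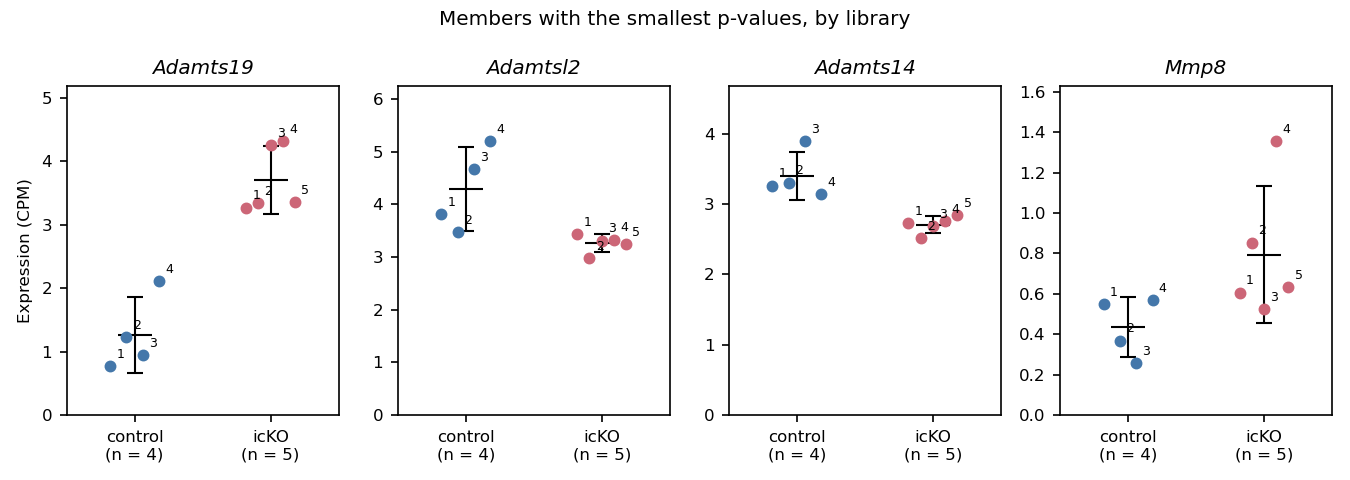
CPM of the 4 tested members with the smallest p-values in each library (points numbered by replicate), with mean and SD as black bars, for 4 control and 5 icKO libraries. Adamts19 is separated upward, Adamtsl2 and Adamts14 are separated downward by small gaps, and Mmp8 overlaps.

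Further down the order of p-values, the remaining members gave no call and overlapping groups. Adamtsl3, an ADAMTS-like protein of the punctin type, ran from 10.5 to 15.1 CPM in icKO and from 10.3 to 11.0 CPM in control, a log2 fold change of 0.23 (SE 0.11; edgeR adjusted p = 0.474). Adamtsl1, the other punctin, ran from 3.56 to 5.15 CPM in icKO and from 3.35 to 4.52 CPM in control, a log2 fold change of 0.25 (SE 0.14). Adamts16 lay between 2.01 and 2.22 CPM in all 5 icKO libraries and spread from 1.18 to 2.19 CPM in control, with a log2 fold change of 0.34 (SE 0.18; edgeR adjusted p = 0.537). The membrane-type genes Mmp17 and Mmp25, both of the lipid-anchored class, were at 0.26 (SE 0.14) and 0.15 (SE 0.09), with adjusted p-values of 0.572 and 0.61. The other membrane-type genes were at -0.17 (SE 0.14) for Mmp15, -0.10 (SE 0.09) for Mmp24, -0.12 (SE 0.10) for Mmp14 and 0.03 (SE 0.17) for Mmp16.

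Of the 7 aggrecanases and versicanases, all were tested and 0 passed, with log2 fold changes from -0.31 (Adamts4) to 0.10 (Adamts20). None of the 7 had an unadjusted p under 0.05, and DESeq2 called none. Adamts15 was the steadiest tested member, at 29.7 to 36.0 CPM over all 9 libraries with a coefficient of variation of 5.78%, and its log2 fold change was -0.03 (SE 0.06). The TIMPs were at -0.06 (SE 0.08) for Timp2, 0.06 (SE 0.11) for Timp3, 0.23 (SE 0.22) for Timp1 and 0.22 (SE 0.39) for Timp4. The gelatinases Mmp2 and Mmp9 were at 0.02 (SE 0.20) and 0.04 (SE 0.29). With standard errors of this size, small shifts in Mmp9 or Timp4 were not detectable.

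Several members varied between libraries of one group more than between the groups, and did so alongside the markers of fibroblasts and of some other cell types. Mmp2 was lowest in control 1 at 14.2 CPM and next in icKO 2 at 20.4 CPM, and highest in control 3 at 33.7 and icKO 4 at 31.9 CPM. Adamts2 was lowest in the same libraries, at 9.38 and 10.1 CPM, and highest in icKO 4 at 20.9 CPM. Adamts10 was at 17.0 CPM in control 1, 20.8 CPM in icKO 2 and 35.3 CPM in icKO 4. The sum of 8 fibroblast markers, all counted in every library, was 681 CPM in control 1, 870 CPM in icKO 2 and 2168 CPM in icKO 4, with the other libraries between 1296 and 1502 CPM. In the same 3 libraries macrophage sums were 88.0, 112 and 179 CPM and endothelial sums 58.4, 63.1 and 90.3 CPM. The macrophage sum was highest in control 3, at 183 CPM, as Mmp2 was. Sensory neuron sums ran the other way, at 18474, 16830 and 14271 CPM. Schwann cell sums did not share the order, at 2891, 3011 and 2991 CPM. Timp2 and Adamts15 did not share this order, since Timp2 in icKO 4 was at 891 CPM, below its 1027 CPM in control 1. These 5 genes were picked after their values were seen. In bulk ganglia, fewer cells of a type and less RNA per cell cannot be told apart. The part of fibroblasts or of any other cell type in these values was not tested.

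**Figure D5:**
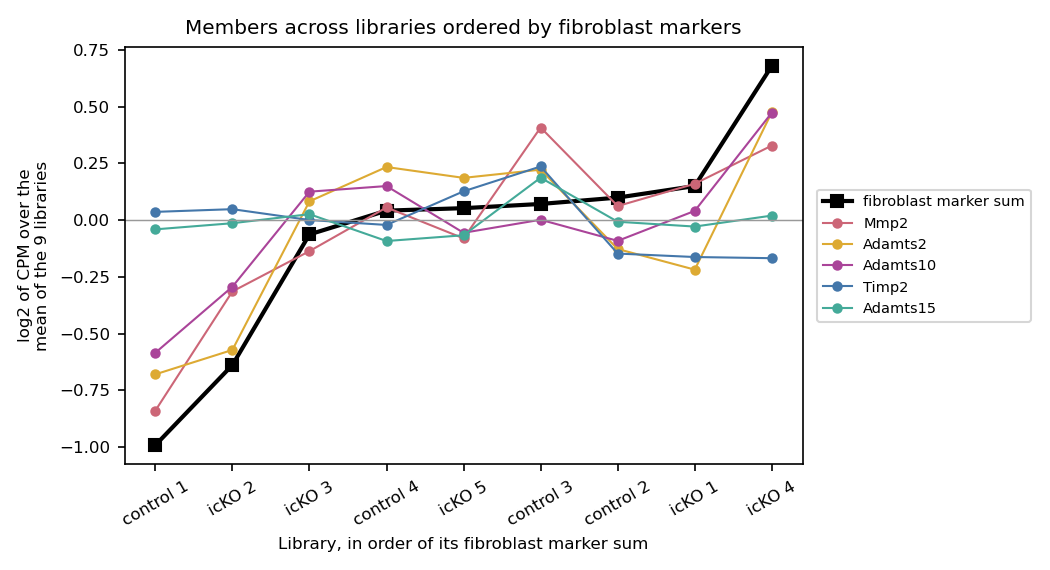
Log2 of CPM over the mean of the 9 libraries for 5 members and for the summed fibroblast markers (black), with libraries in order of that sum. Mmp2, Adamts2 and Adamts10 are lowest in control 1 and icKO 2, where the sum is 681 and 870 CPM, while Timp2 and Adamts15 do not follow the sum.

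Mmp13, a collagenase known from cartilage and bone, was high in 2 libraries. It was at 2.56 CPM in icKO 1, 1.28 CPM in control 3 and 0.155 to 0.617 CPM in the other 7 libraries. It did not pass the filter, with 76 of its 166 counts in icKO 1 and 35 in control 3. Control 3 also held the highest bone and cartilage sum, 67.0 CPM against 17.9 to 28.3 CPM elsewhere, whereas icKO 1 was at 23.6 CPM. Each marker of that list except Ctsk was highest in control 3. Ctsk was at 10.7 CPM there and highest in icKO 4, at 18.4 CPM. The skeletal muscle sum was 33.0 CPM in icKO 1, but it was higher, 50.6 CPM, in control 2, where Mmp13 was at 0.327 CPM. Mmp9, a gene of bone-resorbing cells as well as of neutrophils, was highest in icKO 1 at 2.59 CPM and in control 3 at 2.11 CPM. The part of these tissues in the 2 genes was not tested.

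Genes that the proteases act on or depend on were examined with 6 lists holding 68 genes, of which 61 were tested. None passed by edgeR's test at an adjusted p under 0.05, against 0.852% of all tested genes, while an unadjusted p under 0.05 was reached by 1 gene in the higher and 8 in the lower direction, against 4.85% and 6.26% of all tested. DESeq2 called 2 of them, both lower, Hapln4 and Adam23, at its background of 2.8% of all genes. Their median log2 fold change was -0.05, beside -0.0008 for all genes.

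The proteoglycan and link protein list, which includes substrates of the aggrecanases, held the largest number with an unadjusted p under 0.05. By edgeR's test these were 3 of 13, all lower, against 6.26% of all tested genes lower and 11.1% in either direction. After adjustment, 0 passed. Of 13 tested, 4 had a positive and 9 a negative log2 fold change, with a median of -0.13. Hapln4, a link protein of the perineuronal matrix, was at 38.2, 49.1, 51.2, 34.6 and 45.8 CPM in icKO 1 to 5 and 56.2, 53.7, 67.9 and 57.9 CPM in control 1 to 4. The groups did not overlap, and the log2 fold change was -0.43 (SE 0.11, adjusted p = 0.11). Acan, which encodes the proteoglycan aggrecan, averaged 1.53 ± 0.313 CPM in control and 1.04 ± 0.177 CPM in icKO, with a log2 fold change of -0.56 (SE 0.20; edgeR adjusted p = 0.284). Ncan, for neurocan, stood at -0.32 (SE 0.12) and Bcan, for brevican, at -0.13 (SE 0.06). Vcan, for versican, was at -0.06 (SE 0.12).

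The ADAM list, membrane proteases related to ADAMTS, had 11 tested members, 1 with a positive and 10 with a negative log2 fold change, and a median of -0.11. Adam23, which encodes a catalytically inactive partner of the LGI proteins at synapses, was at 295 to 384 CPM in icKO and 396 to 481 CPM in control. The groups did not overlap, by a gap between icKO 2 at 384 CPM and control 2 at 396 CPM, and the log2 fold change was -0.34 (SE 0.08, adjusted p = 0.081). Adam12 was at -0.45 (SE 0.19, adjusted p = 0.386). Of 11 tested activators and convertases, 1 was positive and 10 negative, with a median of -0.10. Plau, for urokinase, an activator of plasminogen, was at 6.36 to 8.96 CPM in icKO and 9.07 to 9.72 CPM in control, a log2 fold change of -0.31 (SE 0.10; edgeR adjusted p = 0.249). Furin, the convertase that removes many prodomains, was at -0.04 (SE 0.09). Tll2, a tolloid-like protease gene, was at -0.63 (SE 0.25, adjusted p = 0.361).

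Fibrillar collagens and microfibril genes did not pass, with 10 of 15 positive and a median of 0.18. Fn1, for fibronectin, had a log2 fold change of 0.90 (SE 0.35; edgeR adjusted p = 0.353), with icKO 3 at 82.8 and icKO 4 at 60.1 CPM above the other 7 libraries at 18.3 to 26.9 CPM. These 2 libraries also had the highest meningeal sums, 773 and 184 CPM, against 20.7 to 124 CPM elsewhere. Ptgds alone made up 725 CPM of the sum in icKO 3 and 137 CPM in icKO 4. Each other marker of the list was also highest in icKO 3 or icKO 4. In icKO 3, though, Foxc1 and Foxd1 (6.27 and 5.99 CPM) lay below control 3 (6.63 and 6.85 CPM). The part of meningeal tissue in the Fn1 values was not tested. Col2a1, a cartilage collagen, was at -1.09 (SE 0.49, adjusted p = 0.436), with control 3, the library with the high bone and cartilage sum that includes Col2a1, at 15.1 CPM and the other 8 at 1.80 to 4.53 CPM. Without control 3 its log2 fold change was -0.03. Among 11 tested inhibitors and clearance receptors, 6 were positive and 5 negative, including Papln at -0.28 (SE 0.13, adjusted p = 0.468), Sparc at 0.18 (SE 0.09, adjusted p = 0.471) and Reck, a membrane-bound MMP inhibitor, at -0.02 (SE 0.12). The 3 astacin metalloprotease genes, the last list, were below the filter.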

How the data were processed

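Raw read counts per gene, 1 deposited table per library with 55536 Ensembl identifiers, were used. The submitters' processing notes list featureCounts 1.5.0-p1, the aligner STAR 2.5.2a, bcl2fastq 2.20.0.422 and the build mm10. The sources used here do not state the annotation release, the strand setting or how multi-mapped reads were handled. All identifiers were found in GENCODE M21 of the same build, which gave symbols, types, positions and exon lengths. Groups came from the sample titles.

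Genes were kept with filterByExpr at a minimum count of 10 and a total of at least 15, leaving 17258 genes with at least 99.85% of each library's counts, and tested with edgeR 4.0.16 (TMM factors, quasi-likelihood test, R 4.3.3), with p-values adjusted over all of them. The common dispersion corresponded to a biological coefficient of variation of 0.115. Every log2 fold change is icKO against control, with an SE given by the size of the fold change over the square root of F. The fit was tested on simulated data. CPM used TMM-scaled totals. Alternatives were RLE or no scaling factors, robust dispersion, 2 filters, DESeq2 1.42.0, limma-voom 3.58.1, Y-linked counts (split at 20 CPM), a replicate block and each library left out. Replicates of a group differed by more than sampling noise (chi-square per degree of freedom 6.07 to 23.47), so each counted once.

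The members and lists were chosen with earlier results of these data known. The rule for values by library took members past the threshold, the 8 with the smallest p that missed it and the 2 highest of each role by RPKM; the remaining members are summarised by role. Of each other list the 2 genes with the smallest p were named. Ncan, Bcan, Vcan, Furin and Reck were added after their values were seen. Promoter windows came from a RefSeq table on GRCm38.p6. For each member, the window nearest the annotated gene start was used, with no limit on the distance. The windows of Adamts20 (chr15:94404351-94404600) and Mmp11 (chr10:75932503-75932752) were the farthest from it. Both lie inside their genes, whose annotated starts on the minus strand are 94465418 and 75936496, so their CG numbers may not be those of the main promoter. For the comparison over all protein-coding genes, the window with the lowest coordinate of each gene was used instead. These choices can differ for genes with several windows.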

Additional observations from a re-analysis of the deposited data

Results flagged for a closer look

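Single libraries far from the rest of their group were looked for in 130 groups of 4 or 5 values, where chance flags about 1 in 20, and 11 were found. For the 40 tested members, 5 of 80 groups had such a library. Adamtsl1 was at 3.56 CPM in icKO 2, below 4.70 to 5.15 CPM in the other icKO libraries. Mmp23 was at 3.47 CPM in control 2, above 2.13 to 2.27 CPM in the other controls. Control 1 was low for Mmp28, at 3.45 CPM against 4.08 to 4.15 CPM, and high for Timp1, at 3.30 CPM against 1.80 to 1.96 CPM. Timp4 was at 1.78 CPM in icKO 3, above 0.699 to 0.891 CPM in the other icKO libraries.

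For summed markers, 6 of 28 groups had such a library. The mural cell sum was 328 CPM in icKO 4, against 260 to 270 CPM in the other icKO libraries. The fibroblast sum was 681 CPM in control 1, against 1390 to 1450 CPM. The meningeal sum was 773 CPM in icKO 3, 725 CPM of it from Ptgds, against 20.7 to 184 CPM. The spinal cord glia sum was 85.9 CPM in control 4, against 20.5 to 23.3 CPM. The skeletal muscle sum was 33.0 CPM in icKO 1, against 5.47 to 7.50 CPM. The bone and cartilage sum was 67.0 CPM in control 3, against 17.9 to 25.7 CPM.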

How the results depend on the processing

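Adamts19 was called under every scaling, dispersion, filter and test tried and without each library in turn, where its log2 fold change ran from 1.40 (without control 1) to 1.92 (without control 4), with adjusted p-values from 0.00152 to 0.0327. It was the 1 member called in each of these settings, and 0 members were lower in any. Within libraries of high or of low Y-linked counts alone, 0 members were called. Calls over all genes, 147 as reported, numbered 393 with no count filter, 436 with DESeq2, 48 with the replicate block, 20 and 3 within low and high Y-linked libraries, and 78 (without icKO 1) to 175 (without control 2) with a library left out; they were 89 without icKO 3, 94 without icKO 4, 95 without icKO 5 and 92 without control 3. Of the calls, 55.8% were higher in icKO, against 43.8% with no count filter and 45.4% with DESeq2. Among the substrate, activator and inhibitor genes, 3 were called with no count filter (Hapln4, Adam23 and Fn1) and 2 with DESeq2. DESeq2 gave no adjusted p for Mmp8 or Tll2. The cause of these shifts was not tested. In the replicate block, over the 4 numbers both groups share, Adamts19 kept its call (1.66, adjusted p = 0.0268). Libraries with the same number share only that number, since their deviations correlated at 0.103, -0.175, -0.044 and 0.17 and not every library correlated best with its own number. With lengths of the longest transcript, Adamts19 was at 0.246 RPKM in control and ranked 36 of 50 members, against 40. With no count filter, 47 members were tested and Adamts19 was the 1 called; the 3 members with 0 counts could not be compared at this depth. The order of ADAMTS proteases also depends on the length used, since with the longest transcript Adamts10 was at 5.74 RPKM, Adamts15 at 5.39 and Adamts5 at 4.67 RPKM.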
